A study of Mus musculus with 4 samples.

Results

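The E2F transcription factor family was represented by 8 genes, *E2f1* to *E2f8*, which were chosen by gene symbol from the 53465 genes with FPKM values (fragment counts scaled by gene length and a factor for each library). By their classical roles they divide into the activators *E2f1*, *E2f2* and *E2f3*, the repressors *E2f4*, *E2f5* and *E2f6*, and the atypical members *E2f7* and *E2f8*. The study asked how the RNA modification N4-acetylcytidine, which the acetyltransferase NAT10 writes, acts in mouse female germline stem cells (FGSCs). RNA was sequenced from 4 libraries of cultured FGSCs, 2 with a control shRNA (shNC) and 2 with an shRNA against *Nat10* (shNAT10, the knockdown). Both groups were made by lentiviral infection. The study selected infected cells with puromycin or blasticidin S, according to the resistance gene of the vector. Whether both groups had the same drug is not stated in the records used here. The labels give ovary as the tissue and germ stem cells as the cell type, and name no strain, age or time after infection. The study calls the libraries of a group biological replicates. The labels do not say whether they came from separate cultures, so the p-values measure the spread between these libraries.

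E2F proteins bind the promoters of genes needed for entry into S phase. The classical members bind DNA together with a DP partner and are held by the retinoblastoma family of pocket proteins until cyclin-dependent kinases release them. E2F4 and E2F5 carry pocket proteins to silent promoters in resting cells, E2F6 represses without pocket proteins in Polycomb-type complexes and keeps some germline genes silent in somatic cells, and the atypical E2F7 and E2F8 repress S-phase genes without a DP partner.

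*Nat10*, the target of the shRNA, checked the labels. Among control libraries it reached 7.79 FPKM (replicate 1) and 5.42 FPKM (replicate 2), and after knockdown 2.95 and 3.04 FPKM. The groups did not overlap, and the control pair differed more between its replicates than the knockdown pair. On the log2(FPKM + 0.1) scale *Nat10* fell by 1.09 (SE 0.21; limma p = 0.00411, adjusted p = 0.123 by Benjamini-Hochberg, exact permutation p = 0.3333). It was not called without shNAT10 replicate 1 (-1.07, adjusted p = 0.527) or without shNAT10 replicate 2 (-1.11, adjusted p = 0.4996), while the estimate stayed between -1.35 and -0.83 with any of the 4 libraries left out.

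The germ cell label was compared with marker genes. Of 14 germline stem cell markers, *Dazl*, *Pou5f1*, *Dppa3*, *Tfap2c* and *Sall4* were listed at 0 in all 4 libraries, and *Ddx4* had 2 fragments, both in 1 library. The most abundant was *Ifitm3*, at 9.29 and 22.2 FPKM with the control shRNA and 27.1 and 33.6 FPKM with knockdown, and 1 of the 14 markers had a mean FPKM of at least 1. The *Ifitm3* groups did not overlap, and its log2 fold change was 1.06 (interval -0.076 to 2.20, adjusted p = 0.326, not called). Its control libraries stood further apart than its knockdown libraries (SD 9.15 and 4.55 FPKM), with shNC replicate 1 the lowest. In the list 0 were called, but 1 was called higher among genes with a mean of at least 1 FPKM, with the same total FPKM of protein-coding genes or without rRNA-related loci, with the replicate block, without shNC replicate 2 and by limma-voom. Among 8 oocyte markers, *Zp2*, *Zp3*, *Bmp15* and *Figla* were at 0 throughout, *Zp1*, *Nobox* and *Oosp1* were under the filter on low values, and *Gdf9* had 13 fragments in all (log2 fold change -0.74, not called, but called lower without the trend and without shNC replicate 1 (-0.84) or shNAT10 replicate 1 (-0.80)). Of the 8 granulosa cell markers *Foxl2* and *Fshr* were at 0, *Amhr2*, *Cyp19a1* and *Nr5a1* were under the filter, and *Amh* (0.24), *Inha* (1.07) and *Inhba* (0.39) were not called, with *Inhba* alone at a mean FPKM of at least 1. *Inhba* was called higher without the filter, among genes with a mean of at least 1 FPKM, with the scaling without rRNA-related loci (0.45), without shNC replicate 1 (0.48) and by limma-voom (0.40). Without shNC replicate 1 *Amh* was called higher too (1.04), while without shNC replicate 2 it had the other sign (-0.56). All 10 pan-leukocyte markers had a mean FPKM of at least 1. Apart from *Ifitm3*, the germline markers were thus low or at 0 in these libraries, against the label, and FGSC is used here as the name of the cultures only. In such bulk RNA, fewer cells of a type and less RNA per cell cannot be told apart, which holds for every value below.

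The libraries held 14900412 and 13026730 fragments on genes in shNC and 11055843 and 13768896 in shNAT10, as recovered from the FPKM steps. Protein-coding genes took 7452411 of these (50.01%) and 7660818 (58.8%) in shNC, against 7731268 (69.9%) and 9418332 (68.4%) in shNAT10, a share that was higher in both knockdown libraries. The part of this shift in the results was not tested beyond the scalings between libraries. Over the 4 libraries the members had between 220 fragments (*E2f7*) and 3339 fragments (*E2f4*), so that counting error was largest for *E2f7*, *E2f8* (266 fragments) and *E2f2* (342 fragments). All 8 members were above 0 in every library and passed the filter on low values, a mean of at least 0.1 FPKM, which 20116 genes passed.

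On the per-length FPKM scale *E2f4* was the most abundant member, between 24.2 and 28.3 FPKM, and its lowest library lay above the highest library of every other member. *E2f5* followed, with *E2f1* close to it, and the ranges of this pair overlapped. *E2f3*, at 3.85 FPKM or more in each library, came next and was separate from *E2f1* above and from *E2f6* below. *E2f6*, *E2f2* and *E2f8* followed in that order of mean FPKM, and each overlapped in range with its neighbour. *E2f7* was the lowest in all 4 libraries. By mean FPKM, 93.0% of the genes tested lay below *E2f4*, 75.8% below *E2f1* and 26.5% below *E2f7*.

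**Figure D1:**
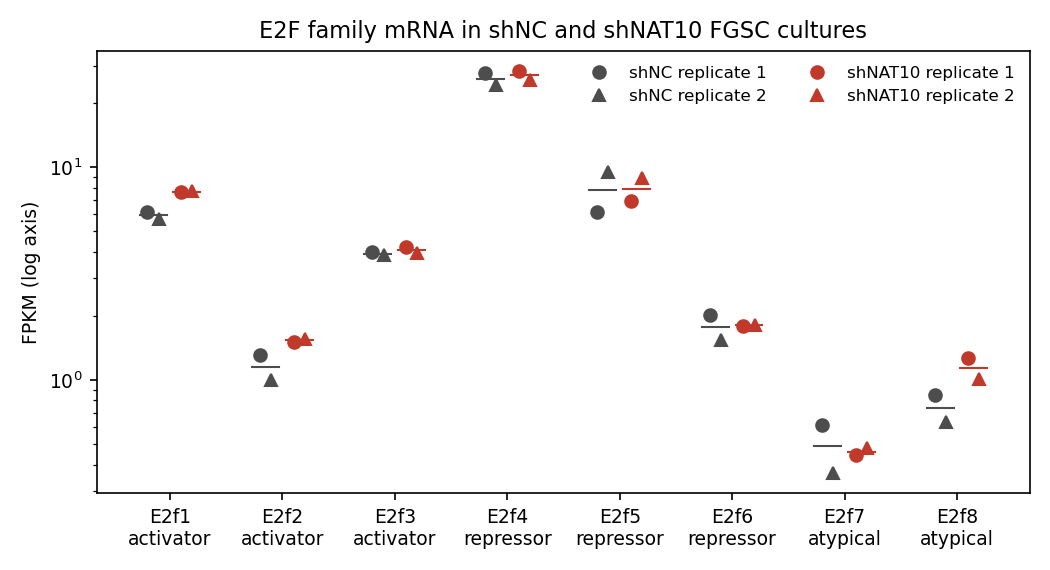
FPKM (log axis) of the 8 E2F members in each library, with shNC in grey and shNAT10 in red, circles for replicate 1, triangles for replicate 2 and a line at each group mean. *E2f4* lies above 24 FPKM in every library, and the groups separate for *E2f1*, *E2f2* and *E2f8*.

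Among the activators came first *E2f1*, which drives S-phase genes and can also induce apoptosis. Its FPKM was 6.18 and 5.69 with the control shRNA, against 7.60 and 7.69 with knockdown of *Nat10*. Each knockdown library exceeded each control library, and the gap was wider than the difference within either group. The group means were 5.94 ± 0.348 FPKM for controls and 7.65 ± 0.0638 FPKM for knockdown (SD, n = 2; exact permutation p = 0.3333). On the log2(FPKM + 0.1) scale *E2f1* rose by 0.36 (SE 0.11), a fold of 1.28 with a 95% interval of 1.05 to 1.57 (limma p = 0.0238, adjusted p = 0.232 over all genes tested, exact permutation p = 0.3333). The call did not hold without shNAT10 replicate 1 (0.37, adjusted p = 0.522), without shNAT10 replicate 2 (0.35, adjusted p = 0.4999) or in limma without the mean-variance trend (0.36, adjusted p = 0.395). The estimate itself lay between 0.30 and 0.42 with any 1 library left out.

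*E2f2* is an activator with a part in blood cell proliferation. Control libraries showed 1.31 and 1.00 FPKM, knockdown libraries 1.501 and 1.56 FPKM. The groups did not overlap, but the control libraries stood 0.36 log2 units apart, about as far as the groups did. The log2 fold change was 0.39 with a 95% interval of -0.19 to 0.97, which was not called (limma p = 0.140, adjusted p = 0.462, exact permutation p = 0.3333). *E2f3*, which is needed with the other activators for normal proliferation, stood at 3.98 and 3.85 FPKM in controls and at 4.23 and 3.95 FPKM after knockdown. Its groups overlapped, since shNAT10 replicate 2 lay just below shNC replicate 1. The log2 fold change of *E2f3* was 0.061, with an interval of -0.27 to 0.39 (limma p = 0.647, exact permutation p = 0.6667). Since a p that misses the threshold does not show equal levels, this leaves room for a change between 0.83-fold and 1.31-fold.

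Among the repressors, *E2f4*, the main E2F of resting cells, gave 27.7 and 24.2 FPKM for the controls and 28.3 and 25.6 FPKM for the knockdown. The groups overlapped, and replicate 1 was the higher library in both. The log2 fold change was 0.057, with a 95% interval of -0.24 to 0.35 (limma p = 0.633, exact permutation p = 0.6667). *E2f5*, the other carrier of pocket proteins, was at 6.16 and 9.50 FPKM under the control shRNA and at 6.93 and 8.89 FPKM under knockdown. Here the libraries of each group differed more than the groups did, by 0.62 log2 units within the controls and 0.36 within the knockdown. The log2 fold change of 0.036 had an interval of -0.63 to 0.71 (limma p = 0.893, exact permutation p = 1.0000). *E2f6*, the pocket-independent repressor, had control values of 2.01 and 1.55 FPKM and knockdown values of 1.79 and 1.82 FPKM. Both knockdown libraries fell between the control libraries. Its log2 fold change was 0.028, with an interval of -0.50 to 0.56 (limma p = 0.894, exact permutation p = 1.0000). The signs depended on single libraries. Estimates were negative for *E2f4* without shNC replicate 2 (-0.040) or shNAT10 replicate 1 (-0.015), for *E2f5* without shNC replicate 1 (-0.27) or shNAT10 replicate 2 (-0.14), and for *E2f6* without shNC replicate 2 (-0.15).

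The atypical members were the lowest of the family by mean FPKM. *E2f7*, a repressor of S-phase genes, was found at 0.614 and 0.365 FPKM in controls (65 and 39 fragments), and at 0.442 and 0.478 FPKM after knockdown (50 and 66 fragments). Both knockdown libraries lay between the control libraries. Its log2 fold change of -0.042 had an interval of -1.02 to 0.93 (limma p = 0.915, exact permutation p = 1.0000). No direction can be given, since the estimate was 0.27 without shNC replicate 1, 0.0044 without shNAT10 replicate 1 and 0.015 when libraries were scaled to the same FPKM total without rRNA-related loci. *E2f8*, which acts together with E2F7, was found at 0.845 and 0.635 FPKM in controls (54 and 41 fragments), and at 1.27 and 1.01 FPKM after knockdown (87 and 84 fragments). Each knockdown library was above each control library. The log2 fold change of *E2f8*, 0.57, had an interval of -0.15 to 1.28 (limma p = 0.0954, adjusted p = 0.392, exact permutation p = 0.3333). On recovered fragments limma-voom gave 0.61 (adjusted p = 0.215), which passed the unadjusted threshold, so *E2f8* was called in that fit and not on the FPKM scale.

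In counts, 1 of the 8 members was called higher after knockdown, beside 8.41% of the 20116 genes tested. Called means a change of more than 1.2-fold with p no larger than 0.05, here taken before adjustment, a threshold that follows the study. No member was called lower (0 of 8 by limma and 0 by limma-voom), beside 7.83% of genes, and 1 of 8 was called in either direction, beside 16.2%. By limma 1 member had an unadjusted p under 0.05 and 0 of 8 an adjusted p under 0.05, beside 88 genes or 0.437% of those tested. That number of genes was 0 with any 1 library left out, with a pseudocount of 1 or 0.01, without the trend and with the replicate block, 36 without the filter, 296 at a mean of at least 1 FPKM and 1580 by limma-voom. By limma-voom 2 members had an unadjusted and 0 an adjusted p under 0.05. Groups did not overlap for 3 of 8 members, all with knockdown higher, beside 23.9% of genes, and for 0 with knockdown lower, beside 24.1%. The median log2 fold change was 0.059 over the members and 0.0054 over all genes tested. With the same FPKM total without rRNA-related loci these medians were 0.127 and 0.069. The median of the members was 0.24 without shNC replicate 1, 0.12 without shNC replicate 2, 0.13 without shNAT10 replicate 1 and 0.12 without shNAT10 replicate 2. Differences between these shares and those of all genes were not tested. Without shNAT10 replicate 1 or shNAT10 replicate 2, 0 members were called. A two-sided exact permutation test of 2 against 2 libraries cannot go below p = 0.3333.

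**Figure D2:**
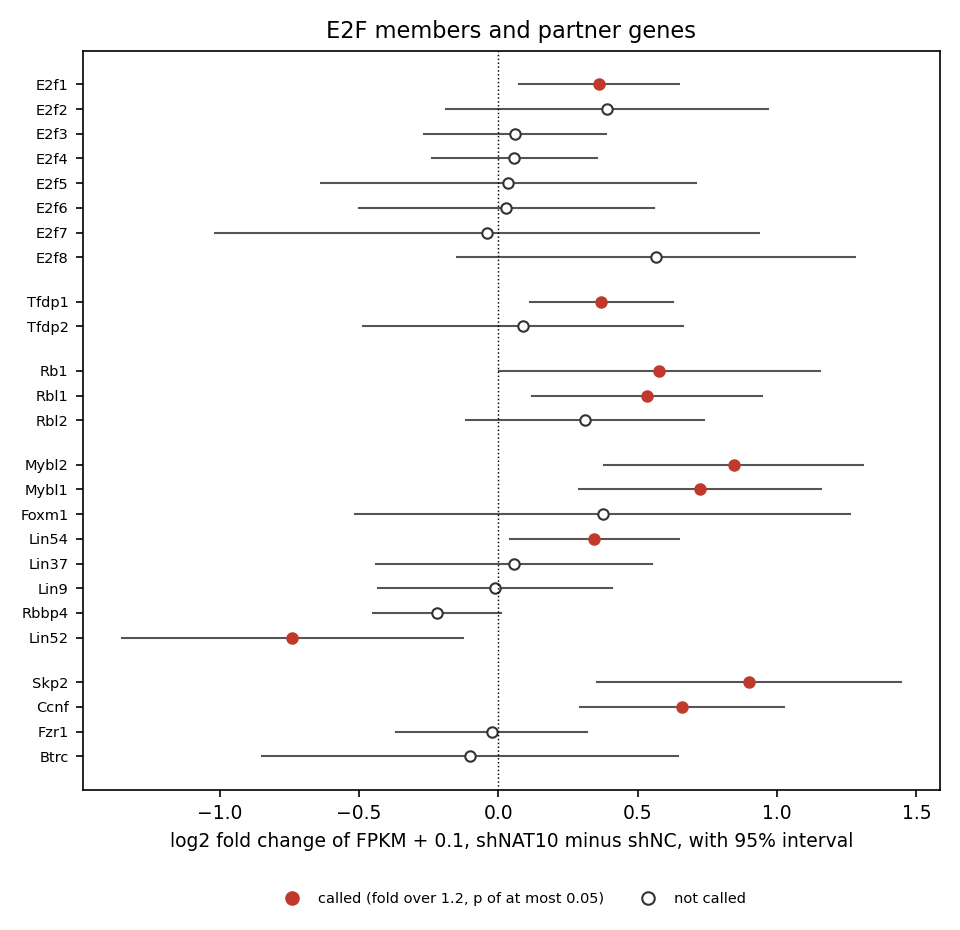
Log2 fold change of FPKM + 0.1 (shNAT10 minus shNC) with 95% intervals for the E2F members, the DP partners, the pocket proteins, the DREAM and MuvB partners and the turnover ligases, from top to bottom; filled points were called. Of the 8 members, *E2f1* is filled, and the interval of *E2f7* is the widest of the family.

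Shares of the summed family FPKM do not depend on a scaling factor between libraries. *E2f4* alone made up 56.8% and 51.7% of the sum in controls, against 54.4% and 50.2% after knockdown. *E2f1* made up 12.7% and 12.2%, against 14.6% and 15.1%, so its groups did not overlap. Nor did those of *E2f2* (2.68% and 2.14% against 2.88% and 3.06%) and *E2f8* (1.73% and 1.36% against 2.44% and 1.97%), each higher after knockdown. *E2f5* ranged from 12.6% to 20.3%, both in controls. The activators together took 23.5% and 22.5% of the sum in controls and 25.6% and 25.9% after knockdown. The repressors took 73.5% and 75.4% in controls and 71.1% and 71.2% after knockdown, although their summed FPKM was not lower, with 35.9 and 35.3 against 37.0 and 36.4. The share of *E2f3* in the family sum was lower after knockdown, with 8.16% and 8.22% against 8.11% and 7.74%. Neither class overlapped between the groups, while the atypical members did, with 2.99% and 2.13% against 3.29% and 2.91%. The ratio of summed activator to summed repressor FPKM was 0.320 and 0.299 for controls, against 0.360 and 0.363 for knockdown. These shares were not tested, and they sum to the whole, so the classes are not independent of each other.

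The genes that E2F proteins bind with were followed in lists, where adjusted p is by limma over all genes tested. Each count of calls stands beside the 8.41% of all genes called higher and the 7.83% called lower. Of the DP dimer partners, *Tfdp1*, the main partner, measured 18.6 and 19.2 FPKM in controls and 23.1 and 25.8 FPKM after knockdown. It rose by 0.37 on the log2 scale (SE 0.10; adjusted p = 0.198), with no overlap of the groups. *Tfdp2* was far lower, between 0.895 and 1.01 FPKM, with a log2 fold change of 0.089 (interval -0.48 to 0.66). *Tfdp1* was not called without shNC replicate 1 (0.35), without shNC replicate 2 (0.39) or in limma without the trend (0.37).

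Of the 3 pocket proteins, which bind and restrain the classical E2Fs, 2 were called higher, beside 8.41% of all genes. *Rb1*, the retinoblastoma gene, ran at 1.78 and 2.56 FPKM in controls and 3.38 and 3.11 FPKM after knockdown. *Rbl1* ran at 2.59 and 2.77 FPKM, then 4.29 and 3.58 FPKM, and *Rbl2* at 2.25 and 1.93 FPKM, then 2.65 and 2.57 FPKM. All 3 had groups that did not overlap, with knockdown higher, beside 23.9% of all genes. The log2 fold change was 0.58 for *Rb1* (interval 0.0017 to 1.15, adjusted p = 0.301), 0.53 for *Rbl1* (0.12 to 0.95, adjusted p = 0.224) and 0.31 for *Rbl2* (-0.12 to 0.74, not called). Of these genes 0 were called without shNC replicate 1 or shNAT10 replicate 1, and 1 without shNC replicate 2 or shNAT10 replicate 2. *Rb1* also lost its call with a pseudocount of 1 (0.43) or 0.01 (0.60) and with quantile normalization (0.57). At 0.58, it was not called without the filter, without the trend and with the replicate block. The estimate of *Rb1* ranged from 0.33 to 0.83 with 1 library left out.

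E2F4 and the pocket proteins assemble with the MuvB core into the DREAM complex, and MuvB later pairs with B-Myb and FOXM1. In this list of 8 genes, 3 were called higher and 1 lower. *Mybl2*, which encodes B-Myb and is itself a classical E2F target, went from 4.74 and 3.51 FPKM in controls to 7.36 and 7.45 FPKM. It rose by 0.84 on the log2 scale (SE 0.18; adjusted p = 0.142). Its relative *Mybl1* went from 1.92 and 1.62 FPKM to 2.98 and 2.98 FPKM and rose by 0.72 (adjusted p = 0.162). Of the MuvB core, *Lin54*, the DNA-binding subunit, rose by 0.34 (adjusted p = 0.260). *Lin52*, which contacts the pocket proteins, went from 4.71 and 3.22 FPKM to 2.48 and 2.12 FPKM and fell by 0.74 (adjusted p = 0.241). *Lin9* (-0.012, interval -0.43 to 0.41), *Lin37* (0.055, -0.44 to 0.55), *Rbbp4* (-0.22, -0.45 to 0.0091) and *Foxm1* (0.37, -0.51 to 1.26) were not called, though *Foxm1* was called without shNC replicate 1 (0.84) and negative without shNC replicate 2 (-0.090). Without shNAT10 replicate 1 the list had 1 gene called higher and 0 lower, without shNAT10 replicate 2 it had 0 and 0, and without shNC replicate 2 it had 2 and 1. *Lin52* was not called without shNC replicate 1 either (-0.47), nor without the filter or the trend (-0.74), and *Lin54* not without the trend or with the replicate block (0.34), nor without shNC replicate 1 (0.35), shNC replicate 2 (0.34) or shNAT10 replicate 2 (0.28).

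Of the 12 genes of the E2F6 complexes 0 were called by limma, 0 with an unadjusted p under 0.05, and 2 were called higher by limma-voom. By limma 2 were called higher when libraries were scaled to the same FPKM total without rRNA-related loci, and 1 at a mean of at least 1 FPKM, with the replicate block, without shNC replicate 1 or without shNC replicate 2. Their log2 fold changes ran from -0.28 to 0.40 with a median of 0.047.

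The genes that set E2F activity and turnover came next. Of 15 G1 cyclins, kinases and inhibitors, 14 were tested, 6 were called higher and 0 lower, beside 8.41% and 7.83% of all genes, with a median log2 fold change of 0.35. *Ccnd1*, whose cyclin starts the release of E2F from the pocket proteins, lay at 32.45 and 29.25 FPKM in controls and 60.9 and 59.8 FPKM after knockdown. It rose by 0.97 on the log2 scale (SE 0.09; adjusted p = 0.0489) and was called in all settings. Its adjusted p was not under 0.05 with a pseudocount of 1 (0.0605) or 0.01 (0.0594), without the filter (0.258), without the trend (0.201), with the replicate block (0.0802) or with 1 library left out (0.169 without shNC replicate 1, 0.180 without shNC replicate 2, 0.379 without shNAT10 replicate 1 and 0.367 without shNAT10 replicate 2). The other called rises were those of *Ccnd3* (0.46), the kinase inhibitor genes *Cdkn1a* (0.30) and *Cdkn2c* (0.50) and both cyclin E genes. The cyclin E genes are E2F targets that in turn free E2F. *Ccne2* rose by 0.63 (adjusted p = 0.189) and *Ccne1* by 0.53 (adjusted p = 0.262). *Ccne1* was not called without the filter, the trend or either shNAT10 library (0.56 and 0.50). With 1 library left out the *Ccne1* estimate ranged from 0.32 to 0.75. *Ccne2* was not called without shNC replicate 1 (0.46), shNAT10 replicate 1 (0.75) or shNAT10 replicate 2 (0.52). Without shNAT10 replicate 1 or shNAT10 replicate 2 the list had 2 genes called higher.

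Of 4 ubiquitin ligase genes that act on E2Fs or their regulators, 2 were called higher. *Skp2* stood at 0.843 and 1.04 FPKM in controls and at 1.88 and 1.78 FPKM after knockdown, and rose by 0.90 on the log2 scale (adjusted p = 0.163). *Ccnf*, the cyclin F gene, stood at 6.04 and 5.06 FPKM, then at 8.36 and 9.22 FPKM, and rose by 0.66 (adjusted p = 0.142). *Fzr1* had a log2 fold change of -0.024 (interval -0.37 to 0.32) and *Btrc* of -0.10 (-0.85 to 0.64). Neither call held without shNAT10 replicate 1 (*Skp2* 0.86, *Ccnf* 0.73) or without shNAT10 replicate 2 (*Skp2* 0.94, *Ccnf* 0.59).

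Among the target genes of E2F in the G1/S transition, 28 of 51 were called higher (54.9%) and 0 lower, beside 8.41% and 7.83% of all genes. The median log2 fold change was 0.42 over the list and 0.0054 over all genes tested. Estimates were positive for 49 of the 51, and groups did not overlap with knockdown higher for 42 and lower for 1, beside 23.9% and 24.1% of all genes. By limma 0 of the 51 had an adjusted p under 0.05 and 28 an unadjusted p under 0.05, while limma-voom on recovered fragments gave 22 and 37. Among the called rises was that of *Tk1*, thymidine kinase, with 2.997 and 2.64 FPKM in controls and 5.20 and 5.60 FPKM after knockdown (0.91 on the log2 scale, adjusted p = 0.0899). Others were those of *Mybl2* and of *Rrm1*, a subunit of ribonucleotide reductase, which lay at 15.65 and 14.6 FPKM, then at 26.5 and 27.9 FPKM (0.84 on the log2 scale, adjusted p = 0.0584). The number called was 6 without shNAT10 replicate 1, 7 without shNAT10 replicate 2 and 12 in limma without the trend. The median of the list was then 0.43 without shNAT10 replicate 1, 0.44 without shNAT10 replicate 2 and 0.31 without shNC replicate 2. *Mybl2*, *Rbl1*, *Ezh2*, *Ccne1* and *Ccne2* also stand in the lists above, so the lists are not independent.

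**Figure D3:**
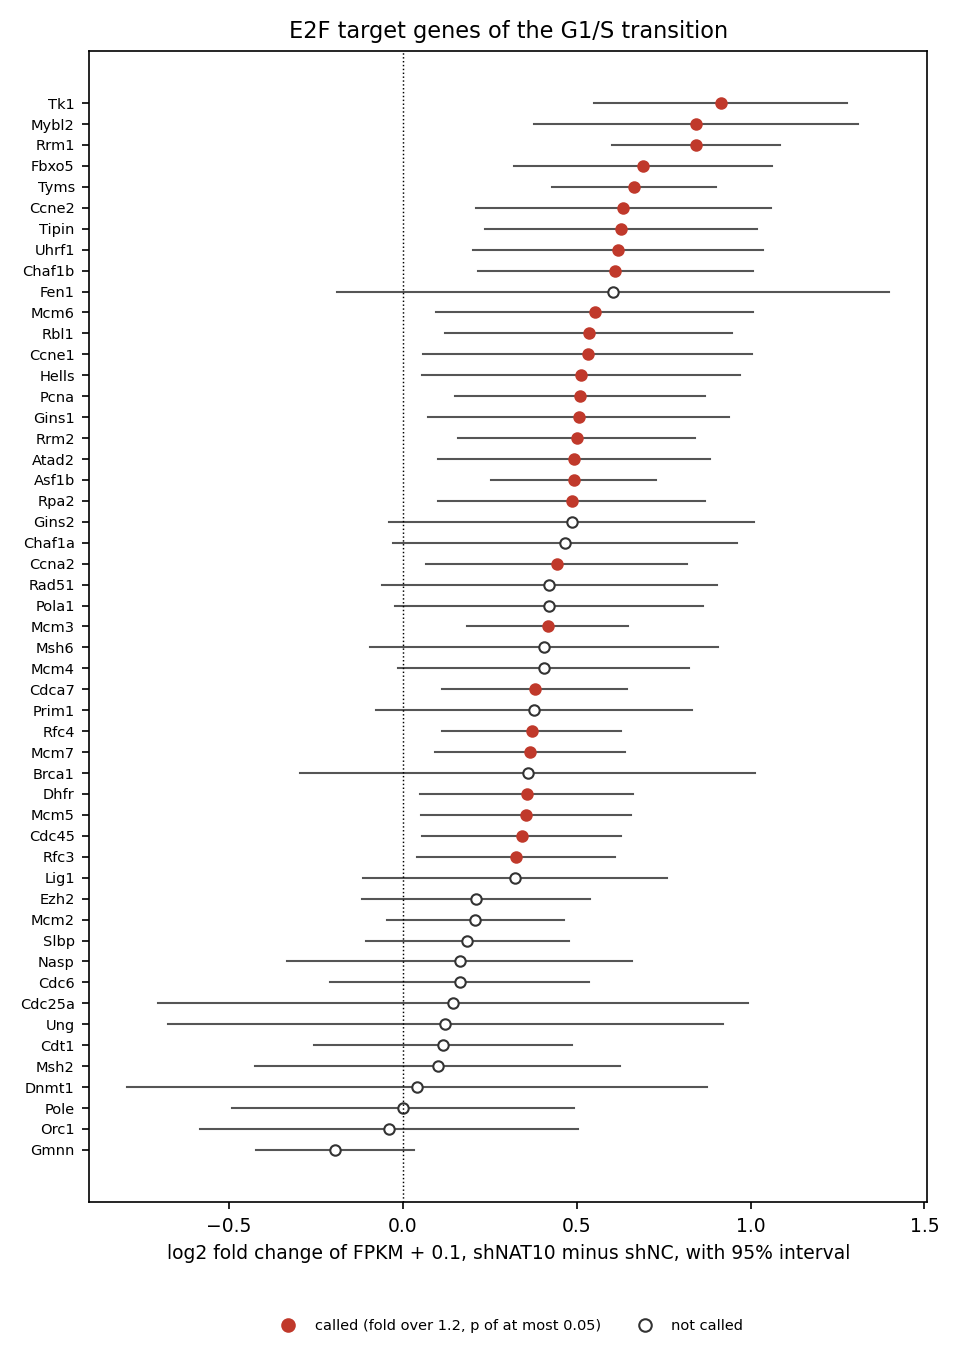
Log2 fold change of FPKM + 0.1 (shNAT10 minus shNC) with 95% intervals for the 51 E2F target genes of the G1/S transition, sorted by size; filled points were called. The 28 called genes all lie to the right of 0, and 2 estimates lie to the left.

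Of 20 G2 and M genes that the DREAM complex binds, 10 were called higher and 0 lower, beside 8.41% and 7.83% of all genes, with a median log2 fold change of 0.28. *Ccnf*, named above with the ubiquitin ligase genes, is also among these 10. *Cenpf*, a kinetochore protein, rose by 0.82 on the log2 scale (adjusted p = 0.210), the kinetochore motor *Cenpe* by 0.80 (adjusted p = 0.274) and the spindle motor *Kif11* by 0.72 (adjusted p = 0.0842). The list had 4 genes called without shNAT10 replicate 1, and without shNAT10 replicate 2 it had 3, while limma without the trend called 4. *Cenpe* was not called without the filter or the trend (0.80), nor without shNAT10 replicate 1 (0.85) or shNAT10 replicate 2 (0.75), and its estimate ranged from 0.40 to 1.196 with 1 library left out. Nor was *Cenpf* called without shNAT10 replicate 1 (0.76) or shNAT10 replicate 2 (0.88), with a range of 0.56 to 1.07.

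Of 8 apoptosis genes described as targets of E2F1, 7 were tested and 1 was called. *Casp8ap2* measured 4.79 and 4.47 FPKM in controls and 7.31 and 7.05 FPKM after knockdown, and rose by 0.62 on the log2 scale (adjusted p = 0.117). *Pmaip1* missed the threshold narrowly, at 0.56 with an interval of -0.0019 to 1.12. It was called by limma-voom (adjusted p = 0.0386), without shNC replicate 2 (0.83) and at a mean of at least 1 FPKM (0.56). It was also called with the same total FPKM of protein-coding genes (0.56) or without rRNA-related loci (0.63), and with quantile normalization (0.58). With 1 library left out its estimate ranged from 0.29 to 0.83. *Apaf1* (0.080), *Bcl2l11* (0.20) and *Bbc3* (-0.26) were not called, and *Trp73* was listed at 0 in all libraries. Without shNC replicate 2 the list had 2 genes called.

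Genes that E2F6 is described to silence outside the germline were at or near 0. Of 7 such genes *Tuba3a*, *Tuba3b*, *Mael* and *Hormad1* were listed at 0 in every library, *Smc1b* had 5 fragments over the 4 libraries, *Slc25a31* 4 and *Stag3* 3, and none passed the filter on low values. The multiciliated cell partners of E2F4 and E2F5 were likewise nearly absent, with *Gmnc* at 0 and 3 fragments of *Mcidas* in 1 library. At this depth 3 fragments, taken as the floor, correspond for a gene of 1 kb to 0.255 FPKM in shNC replicate 1 and 0.196 FPKM in shNAT10 replicate 2, for counting error only.

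Some markers of other cells moved between the groups as well. Of the 10 pan-leukocyte markers, all tested, 5 were called lower and 0 higher. Their summed FPKM was 541.3 and 596.3 for controls, against 434.5 and 455.3 for knockdown, and none was at 0. *Cd53* was the most abundant on average, while in both knockdown libraries *Coro1a* (142.1 and 150.4 FPKM) exceeded it (121.1 and 125.9 FPKM). Called falls included *Fcer1g* (log2 fold change -1.01), *Laptm5* (-0.64) and *Cd53* (-0.58). The other 5 were not called: *Ptprc* (-0.014), *Vav1* (-0.029), *Coro1a* (-0.036), *Spi1* (-0.13) and *Cd48* (0.057). *Laptm5* was not called without the filter, the trend, shNC replicate 1 (-0.34), shNAT10 replicate 1 (-0.51) or shNAT10 replicate 2 (-0.76), with the same total FPKM of protein-coding genes (-0.64) or without rRNA-related loci (-0.57), or with the replicate block, and *Cd53* not without shNAT10 replicate 1 (-0.55). There were 2 called lower without shNAT10 replicate 1, and without shNAT10 replicate 2 there were 3. What part these shifts have in the values of the E2F members and their targets was not tested.

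Of 12 mast cell markers 7 were tested, 2 were called higher (*Ms4a2*, log2 fold change 2.12, and *Il1rl1*, 0.65) and 3 lower (*Kit*, -0.60, *Mitf*, -0.39, and *Gata2*, -0.33). *Mitf* was not called without shNC replicate 1 (-0.34), shNC replicate 2 (-0.43) or shNAT10 replicate 2 (-0.29), and neither *Mitf* nor *Gata2* without the trend. Leaving out shNAT10 replicate 1 removed the calls of *Ms4a2* (1.99), *Kit* (-0.55) and *Gata2* (-0.34), and *Gata2* was not called without shNAT10 replicate 2 either (-0.33). Their summed FPKM was 423.3 and 422.8 for controls, against 475.9 and 479.6 for knockdown, with *Cpa3* the most abundant and *Fcer1a* and *Tpsb2* at 0. Without shNAT10 replicate 1 there were 1 higher and 1 lower, and without shNAT10 replicate 2 there were 2 and 1. The 8 macrophage markers summed to 51.5 and 54.5 FPKM, then 42.2 and 46.8 FPKM, with *Adgre1* the most abundant and *C1qa* at 0. Of 5 tested, *Lyz2* was called higher (1.35), though not without shNC replicate 1 (1.45), shNC replicate 2 (1.26) or shNAT10 replicate 2 (1.05). *Adgre1* was called lower (-0.37), though not without shNC replicate 1 (-0.42), shNC replicate 2 (-0.32) or shNAT10 replicate 1 (-0.26), without the trend, or with the scaling without rRNA-related loci (-0.30). *Csf1r* (0.24), *Cd68* (-0.31) and *Cd14* (0.70) were not called, and *Mertk* and *Itgam* were under the filter. *Cd14* was called higher with the replicate block (0.70), by limma-voom (0.72) and without shNC replicate 1 (1.17). With 1 library left out the *Cd14* estimate ranged from 0.22 to 1.17.

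Of the 8 fibroblast markers 7 were tested, and *Col3a1* (log2 fold change 0.98), *Pdgfra* (0.83) and *Thy1* (0.76) were called higher. *Col3a1* was not called without shNC replicate 1 (1.08), shNC replicate 2 (0.87) or shNAT10 replicate 2 (0.80), and *Pdgfra* not without shNAT10 replicate 1 (0.79) or shNAT10 replicate 2 (0.88). *Col1a1* (-0.068), *Col1a2* (-0.064), *Dcn* (0.090) and *Pdgfrb* (-0.16) were not called, and *Lum* was at 0. The list summed to 54.3 and 47.4 FPKM in controls, then 65.2 and 55.6 FPKM, with *Dcn* the most abundant. Without shNAT10 replicate 2 there was 1 called, and 2 without any other library. T and B cell markers summed to 0.432 FPKM or less in each library. *Cd79a* (0.013) was tested and not called, *Cd3e* and *Ms4a1* were at 0, and *Cd3d*, *Cd4*, *Cd8a* and *Pax5* were under the filter. The part of these markers in the E2F values was likewise not tested.

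For each member with a mean FPKM of at least 1, the 2 protein-coding genes with the most similar pattern over the 4 libraries were looked up among 9713 others, by the root mean square difference of log2(FPKM + 0.1) centred on each gene's mean. For *E2f1* they were *Fancm* (0.0042) and *Trim25* (0.012), for *E2f2* *Rai14* (0.012) and *Prim1* (0.016), and for *E2f3* *Cog5* (0.0039) and *Aasdhppt* (0.0069). For *E2f4* they were *Il1a* (0.011) and *Srsf3* (0.014), for *E2f5* *Brf2* (0.024) and *Gimap5* (0.034), and for *E2f6* *Lyar* (0.0091) and *Phldb3* (0.011). *Prim1*, the primase subunit that resembled *E2f2*, is also among the 51 listed targets, and no other matched gene is. The matches rest on 4 libraries. The search returns 2 genes for any member, so a match, that of *Prim1* included, does not show a link.

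The members lie on 8 different chromosomes of GRCm38. *E2f1* spans 154559407 to 154569892 on the minus strand of chromosome 2, *E2f2* 136172394 to 136196057 on the plus strand of chromosome 4 and *E2f3* 29906575 to 29986063 on the minus strand of chromosome 13. *E2f4* spans 105297663 to 105305370 of chromosome 8, *E2f5* 14578641 to 14606309 of chromosome 3 and *E2f6* 16810963 to 16839742 of chromosome 12, all on the plus strand. *E2f7* spans 110745439 to 110787384 on the plus strand of chromosome 10 and *E2f8* 48866429 to 48881596 on the minus strand of chromosome 7. Exons of 3 members overlap exons of a gene on the opposite strand in GENCODE M21: *E2f8* shares 610 of its 5443 exon bases with *Gm2788*, *E2f7* 86 of 9009 with *1700020G17Rik* and *E2f5* 26 of 1782 with *1810022K09Rik*. The labels name a strand-specific library kit beside another kit, and whether reads were counted by strand is not stated in the records used here, so reads in these stretches cannot be told apart. *Gm2788* itself was at 0.303 and 0.211 FPKM in controls, then 0.336 and 0.378 FPKM, and was not called. *1810022K09Rik* was far more abundant, at 30.7 and 35.9 FPKM in controls, then 33.4 and 34.1 FPKM, and was not called (0.023). *1700020G17Rik* was under the filter on low values. The part of these genes in the values of *E2f8*, *E2f5* and *E2f7* was not tested.

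Promoter windows of RefSeq (GRCm38.p6) were searched because E2F members are known to regulate each other's promoters. Entries were found for 6 of the 8 members, 8 windows in all, and not for *E2f4* and *E2f5*. The 250 bases before the start were searched on both strands for 4 spellings of the E2F motif. Of all 32851 windows of this length 3.82% held TTCCCGC, 1.28% held TTCGCGC, 1.36% held TTGCCGC and 1.97% held TTGGCGC. At least 1 of them was in 7.89% of all windows and in 22 of the 46 windows of the listed E2F targets (47.8%). Among the members, 1 window each of *E2f3*, *E2f7* and *E2f8* held a match, and none was found in the windows of *E2f1*, *E2f2* and *E2f6*. The window of *E2f1* lies wholly within its annotated exons. The matches are shown with up to 10 bases on each side, the motif or its reverse complement in capitals; they describe the letters and do not show binding.
*E2f3*, minus strand, chr13:29986064-29986084: tgaaaagccgGCGGGAAatct
*E2f7*, plus strand, chr10:110745206-110745232: ccgccccggcTTCCCGCgtccgcgccc
*E2f7*, plus strand, chr10:110745231-110745257: ccgcgtccccGCGGGAAacgctcccgc
*E2f7*, plus strand, chr10:110745337-110745363: gcggcgccgaGCGCCAAgacagcgagg
*E2f8*, minus strand, chr7:48881691-48881717: gaggcgcggaTTGGCGCgcggggcccc

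The study also used a pair of oligos named for *E2F7* in a separate quantitative PCR assay, which bears on the same family. Their gene-specific parts were matched to all 141767 transcripts of GENCODE M21, on both strands, and are printed with the matching bases in capitals.
E2F7 ATG A: GTCCAAGGTCTGCTCG
E2F7 ATG BF: TGAAGGAGCTGATGAATGCC
Each matched exactly in 2 transcripts, and both of these belong to *E2f2*. The 20 bases of the oligo named BF lie in the sense orientation at chr4:136181348-136181367, in exon 4 of transcript E2f2-201, within the coding sequence and 646 bases after its first base. The 16 bases of the oligo named A match the opposite strand next to it, at chr4:136181367-136181382, sharing 1 base. Among the 9 transcripts of *E2f7* the best ungapped match left 6 of 20 bases unmatched for BF and 5 of 16 for A. The assay itself was not analysed here. In the present libraries *E2f2* and *E2f7* differed in level, with *E2f2* at 1.00 FPKM or more and *E2f7* at 0.614 FPKM or less in every library.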

How the data were processed

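Long RNA-seq of FGSCs was analysed from the values of 4 libraries, grouped by their titles into shNC and shNAT10. The authors trimmed reads with cutadapt, aligned them with HISAT2 to mm10 and tested with DESeq2, per the submitters' processing notes, and deposited FPKM for 53465 genes; the counting program and annotation are not given in the sources used here. The paper describes rRNA depletion and the labels mRNA isolation, so the records differ. A second table, with the authors' fold changes and p-values and 4 columns of single-library values, was not used.

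Genes with a mean of at least 0.1 FPKM were compared on log2(FPKM + 0.1), which understates changes of low genes, by limma 3.58.1 in R 4.3.3 (lmFit, eBayes with trend), two-sided, with Benjamini-Hochberg adjustment over all genes tested. Whole fragments were recovered from the FPKM steps and the GENCODE M21 exon lengths (96.3% of values under 50 fragments within 0.02 of a whole number). The members and lists were chosen with earlier results of these data known. Named were the 8 members, *Nat10*, the genes of lists of up to 8 (some of which are not reported here), of longer lists the 3 largest called rises and falls with a mean of at least 1 FPKM, and 2 genes of similar pattern per member; others were named after their values were seen. Intervals are 95% intervals.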

Additional observations from a re-analysis of the deposited data

How the results depend on the processing

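Estimates for *E2f1*, *E2f2*, *E2f3* and *E2f8* stayed positive under every alternative: pseudocounts of 1 and 0.01, no filter, a mean of at least 1 FPKM (which *E2f7* and *E2f8* did not pass), 4 scalings, limma without the trend, the replicate block, limma-voom and each library left out. The cause of the changes below was not tested. Without the trend 0 members (*E2f1*: 0.36, adjusted p = 0.395) and 12 targets were called higher, and with limma-voom 2 members (*E2f8*: 0.61). Scaling to the same FPKM total without rRNA-related loci moved the share of calls that were higher from 51.8% to 64.8% (2123 higher, 1153 lower). This scaling gave *E2f7* 0.015, *Lin9* 0.053, *Fzr1* 0.044 and *Col1a2* 0.0020. It also gave *E2f3* 0.128, *E2f4* 0.125, *E2f5* 0.104 and *E2f6* 0.093. Quantile normalization moved the share of *E2f3* in shNC to 8.26%. *Cd79a*, at 11 fragments, gave -0.016 with a pseudocount of 0.01, -0.17 with quantile normalization and -0.086 with limma-voom.

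With 1 library left out, the lone library is assumed to vary like the others. Genes called higher then numbered 1108 to 1734 and lower 899 to 1659 (1691 and 1576 with all), members called higher 0 to 1 and lower 0 to 0, targets higher 6 to 29 and lower 0 to 1. Log2 fold changes ranged from 0.30 to 0.42 for *E2f1*, 0.21 to 0.57 for *E2f2*, 0.014 to 0.11 for *E2f3*, -0.040 to 0.15 for *E2f4*, -0.27 to 0.34 for *E2f5*, -0.15 to 0.21 for *E2f6*, -0.35 to 0.27 for *E2f7* and 0.38 to 0.75 for *E2f8*. Among the other genes reported, signs changed for *Lin37* (-0.13 to 0.24), *Foxm1* (-0.090 to 0.84), *Fzr1* (-0.16 to 0.11), *Btrc* (-0.23 to 0.024), *Amh* (-0.56 to 1.04), *Col1a1* (-0.27 to 0.13), *Col1a2* (-0.20 to 0.070), *Dcn* (-0.069 to 0.25), *Csf1r* (-0.10 to 0.57), *Cd68* (-0.64 to 0.010), *Cd79a* (-0.36 to 0.39), *Il1a* (-0.066 to 0.15), *Srsf3* (-0.0062 to 0.16), *Brf2* (-0.23 to 0.35), *Gimap5* (-0.21 to 0.34), *Lyar* (-0.14 to 0.21) and *Phldb3* (-0.17 to 0.22).

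Whether libraries with the same replicate number were handled together is not stated in the labels. The differences between replicates 1 and 2 of the groups correlated at 0.0071 across the genes tested, which are not independent. This correlation over all genes cannot settle whether some genes share an effect of the replicate. With the replicate block 1587 genes were called higher and 1527 lower, *E2f1* was still called, and 0 genes had an adjusted p under 0.05.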
